A study of Mus musculus with 2 samples.

Results

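The replication-dependent histone genes of the mouse, taken as every gene whose symbol begins with Hist1h, Hist2h, Hist3h or Hist4h, were examined in single cells of the E16.5 dorsal telencephalon. The rule picked 67 of the 32285 genes in the deposited matrices: 6 genes for the linker histone H1, 18 for H2A, 18 for H2B, 12 for H3 and 13 for H4. No expression value entered the rule. The material came from WT embryos of a series on the deletion of Dot1l, the gene of a histone methyltransferase, with Emx1-Cre, whose knockout embryos were not analysed here. The study describes its E16.5 single-cell embryos as C57BL/6J mice, and how the WT embryos were bred is not given in the sources used here. The 2 libraries, called WT replicate 1 and WT replicate 6 after their labels, formed a single group of the same genotype and age, and no allele other than WT or treatment is named for them. Their cells were dissociated with papain and captured with the 10x 3′ chemistry, which primes on poly(A) tails and marks each molecule with a unique molecular identifier (UMI). All comparisons were therefore made between cell classes within the same 2 libraries.

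Histones package DNA into nucleosomes, each built on an octamer of H2A, H2B, H3 and H4, while H1 binds the linker DNA between nucleosomes. A cell that copies its genome must double its histones, and the genes of this family are transcribed mainly in S phase. Their mRNAs are unusual because most end in a short stem-loop instead of a poly(A) tail, and the stem-loop binding protein (Slbp) ties processing, translation and decay of these mRNAs to DNA synthesis. Some members are also known to give polyadenylated transcripts, among them in cells that have left the cycle. In the embryonic cortex, radial glial cells (RGCs), and the intermediate progenitor cells (IPCs) they give rise to, divide and produce excitatory neurons, whereas cortical interneurons arise from progenitors of the ganglionic eminences and migrate in.

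The stem-loop is shown first because it defines the mRNA form that a poly(A)-primed library captures poorly. Transcript models of GENCODE vM39 (build GRCm39), matched by Ensembl identifier for all 67 members, were searched for 16 bases that begin with GG, pair 6 bases and enclose a loop of 4 bases beginning with TT. Such an element was found for 45 of the 67 members. Models of members without a match were often short, such as 312 bases for Hist1h4k, 381 for Hist1h2bn and 393 for Hist1h2ak. Matched models of the same types had 402 bases for Hist1h4m and 463 for Hist1h2bj. A missing match therefore does not show that a member lacks the stem-loop. Within the last 200 bases of a transcript, the same search found it for 25 of the 67 members and for 32 of all 21642 protein-coding genes (0.148%), the members included. The 6 forms are written 5′ to 3′ with the paired bases in capitals.

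H1, H2A, H2B and H3 form, 27 members: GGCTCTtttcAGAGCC
form of Hist1h3c, Hist1h3e, Hist1h3f and 3 others: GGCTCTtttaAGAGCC
Hist2h2ac form, 1 member: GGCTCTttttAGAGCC
H4 form, 7 members: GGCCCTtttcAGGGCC
form of Hist1h4i and Hist2h4: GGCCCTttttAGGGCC
form of Hist1h4b and Hist1h4j: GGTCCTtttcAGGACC

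The first form was shared by H1, H2A, H2B and H3 genes, while the last 3 were found in H4 genes alone among the members. In the longest annotated transcript with a match, the sequence after the stem-loop ran to 3 bases in Hist1h2ap, 11 in Hist1h2ab and 74 in Hist1h3c. It ran to 151 bases in Hist1h2ae, 171 in Hist3h2ba and 373 in Hist1h2bc. It was longer still in Hist1h4d (770 bases), Hist1h1c (840), Hist1h1e (1153) and Hist3h2a (1643). The models therefore held both short 3′ ends and ends far beyond the stem-loop. No match was found in the 743 bases of the Hist1h1b model, which does not show that the gene lacks the element. The poly(A) signal letters AATAAA stood in the last 50 bases of 16 of 67 members (23.9%), compared with 57.2% of the 21642 protein-coding genes. Both shares depend on where the models end, and short models limit this search too. The 16 included Hist3h2ba, Hist3h2a, Hist1h2ae, Hist1h1c and Hist2h2be.

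Promoters of 61 members were available from RefSeq (build GRCm38.p6) and were searched over 250 bases before the start. On both strands, the octamer ATTTGCAT, known from H2B promoters, occurred in 13 of 61 windows (21.3%), against 1.60% of 32851 windows of all genes. The letters CCAAT occurred in 50 of 61 (82.0%), against 33.8%, and TATAAA in 29 of 61 (47.5%), against 12.4%. Of the 16 H2B windows, 6 held the octamer, 16 the CCAAT letters and 8 the TATA letters. The former can share their last 2 letters with the start of the octamer, and a match describes the sequence without showing that a factor binds there. The windows printed here belong to a member strongly tied to cycling (Hist1h1b), to the member with the most UMIs in neurons (Hist3h2ba), and to the space between the divergent starts of Hist1h2ae and Hist1h2bg, with motif matches on either strand in capitals.

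Hist1h1b, chr13:21780626-21780875, minus strand: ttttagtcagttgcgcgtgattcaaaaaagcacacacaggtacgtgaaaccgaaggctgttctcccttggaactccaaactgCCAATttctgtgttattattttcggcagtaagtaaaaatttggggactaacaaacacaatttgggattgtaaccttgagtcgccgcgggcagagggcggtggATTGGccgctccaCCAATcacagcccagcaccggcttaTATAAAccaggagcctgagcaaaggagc
Hist3h2ba, chr11:58948661-58948910, plus strand: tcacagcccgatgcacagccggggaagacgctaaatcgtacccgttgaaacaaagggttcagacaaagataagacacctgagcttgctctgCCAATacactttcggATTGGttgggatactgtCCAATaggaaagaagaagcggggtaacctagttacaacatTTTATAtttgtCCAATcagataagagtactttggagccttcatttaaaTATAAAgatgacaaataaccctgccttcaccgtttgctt
Hist1h2ae to Hist1h2bg, chr13:23571221-23571399, plus strand: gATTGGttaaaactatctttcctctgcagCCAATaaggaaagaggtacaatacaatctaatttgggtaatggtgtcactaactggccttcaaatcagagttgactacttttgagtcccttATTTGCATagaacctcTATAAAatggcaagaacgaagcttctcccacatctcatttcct

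The Hist1h1b window held 3 CCAAT and 1 TATAAA match, and that of Hist3h2ba held 4 CCAAT, 2 TATAAA and no octamer match. The 179 bases shared by Hist1h2ae and Hist1h2bg held 1 octamer, 2 CCAAT and 1 TATAAA match, yet the genes on its sides had 14335 and 400 UMIs. On this build, 53 members lay on chromosome 13, 10 on chromosome 3, 2 on chromosome 11 and 1 on chromosome 6. Hist1h2ap matched 2 RefSeq entries and was given no position. Hist3h2ba (chr11:58948911-58949372) overlapped the lncRNA gene Gm51864 and Hist3h2a (chr11:58954685-58955192) the protein-coding gene Trim17. Hist1h2be overlapped the lncRNA gene Gm33387, so that reads of these 3 members may be shared with their neighbours. Members of a type have near-identical coding sequences, and the split of reads among them is uncertain.

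The libraries held 14136 and 13046 barcodes with 74930397 and 68964234 UMIs. Kept were 8139 and 8209 cells, those holding 1500 to 60000 UMIs of which under 10% came from mitochondrial (mt-) genes, with median depths of 6924 and 6664 UMIs. The libraries shared 59 barcodes, 26 of them among the kept cells, and differed by far more than counting error, with a chi-square of 26.9 per degree of freedom over 26962 genes. Marker genes placed 10928 of the 16348 kept cells in a class, each named with the suffix "-like", and 5420 in none. The leading genes of the progenitor classes included markers of each, such as Fabp7, Aldoc and Hopx in RGC-like, Eomes, Neurog2 and Mfap4 in IPC-like and Dlx1 and Dlx2 in eminence-progenitor-like cells, the last of which were also led by the members Hist1h2ae and Hist1h3c. Subpallial classes (eminence progenitors, striatal neurons and interneurons) were present in the dissected tissue. Cells were called cycling when genes of an S-phase and a G2/M list, which hold no member, made up at least 60 of 10000 UMIs. This gave 294 cycling and 249 non-cycling RGC-like cells, 221 and 753 IPC-like cells, and 484 and 240 eminence-progenitor-like cells. Between 56 and 96 cells of each of these 3 classes lay near that limit, at 40 to 80 per 10000.

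Of the 67 members, 58 had at least 100 UMIs in the kept cells. No UMI was counted for Hist1h2aa, Hist1h2ba and Hist1h2bq, the first 2 being known as testis histones, which allows up to 3 UMIs each over all kept cells. Hist2h2aa2 had 1 UMI, the testis linker histone Hist1h1t 13 and Hist1h2ao 38. The most UMIs belonged to Hist3h2ba, an H2B gene outside the main cluster, with 44930 or 19.3% of all member UMIs. The linker histone genes Hist1h1e and Hist1h1b followed with 32472 (13.9%) and 27509 (11.8%), then Hist1h4d with 20272 (8.69%), Hist1h2ae with 14335 (6.15%) and Hist3h2a with 12080 (5.18%). Hist1h2ap, Hist1h1c, Hist1h2ab, Hist1h3c, Hist1h3e and Hist1h2bc had between 4735 and 8549 UMIs. By type, H1 genes made up 32.4% of member UMIs, H2B 26.8%, H2A 21.7%, H4 12.4% and H3 6.63%. These are shares of UMIs, which rank counted 3′ ends and not transcript numbers.

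Summed over the 67 members, the level was several times higher in cycling than in non-cycling progenitors, while the non-cycling neural classes lay close together. Levels are in UMIs of a gene scaled to a common total per class (CPM), given for WT replicate 1 and then WT replicate 6. Cycling RGC-like cells had 6736 and 5597 CPM and non-cycling ones 1052 and 957. Cycling IPC-like cells had 7857 and 4480 CPM, against 1047 and 918 in non-cycling ones. Cycling eminence-progenitor-like cells had 10038 and 7313 CPM, against 1210 and 1137. In both libraries every cycling class stood above every non-cycling class. Within libraries the fold was 6.12 in RGC-like, 6.05 in IPC-like and 7.31 in eminence-progenitor-like cells as the geometric mean of both, and the log2 differences were 2.68 and 2.55, 2.91 and 2.29, and 3.05 and 2.69. No test was made of these sums, since an exact permutation test over 2 libraries cannot reach 0.05.

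**Figure D1:**
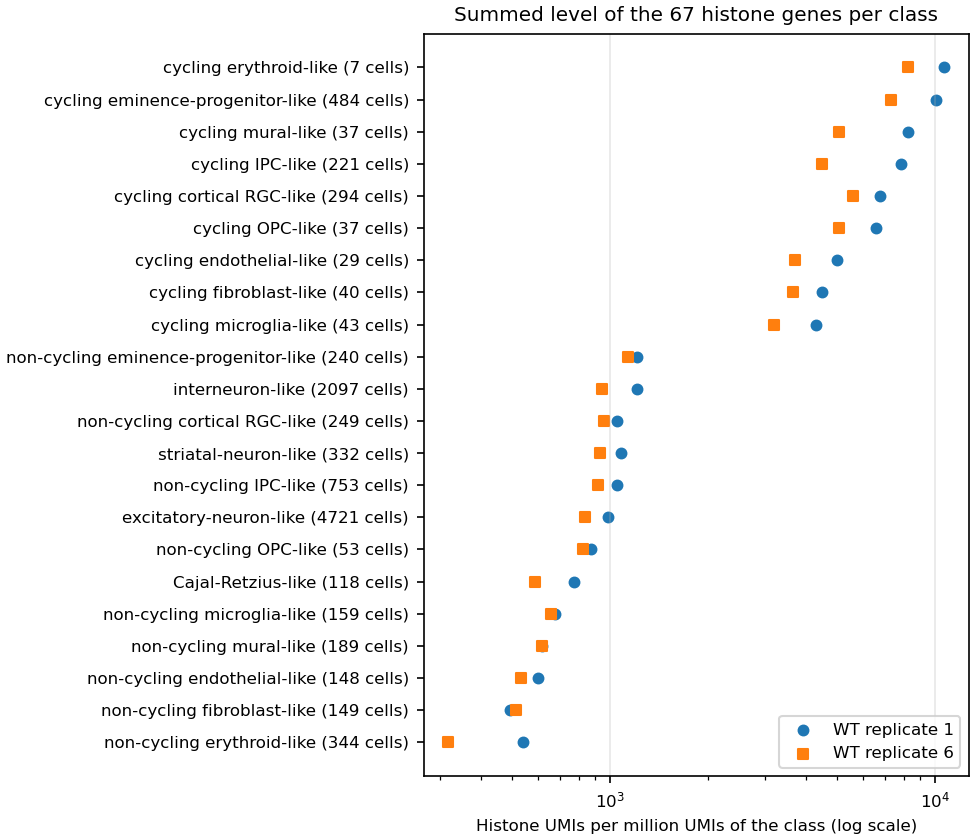
Summed level of the 67 histone genes in CPM (log axis) in 22 cell classes, 1 point per library. The 9 cycling classes sit above the 13 others, with erythroid-like cells (7 cells) highest at 10628 and 8255 CPM. Cycling eminence-progenitor-like cells are at 10038 and 7313 CPM and excitatory-neuron-like cells at 986 and 839 CPM.

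The same ordering held in the other classes. Cycling cells of the oligodendrocyte precursor-like (OPC-like), microglia-like, endothelial-like, mural-like and fibroblast-like classes had mean levels of 5815 ± 1055, 3750 ± 786, 4332 ± 901, 6651 ± 2238 and 4057 ± 592 CPM (SD, n = 2). Their non-cycling counterparts had 848 ± 35.02, 668 ± 12.1, 567 ± 47.4, 618 ± 2.85 and 503 ± 14.8 CPM. These cycling classes held 29 to 43 cells each. Cycling erythroid-like cells, only 7 in number, had the highest level of all classes in both libraries (10628 and 8255 CPM). Non-cycling erythroid-like cells had 541 and 318 CPM. Excitatory-neuron-like cells had 913 ± 104 CPM, interneuron-like cells 1078 ± 185, striatal-neuron-like cells 1004 ± 103 and Cajal-Retzius-like cells 681 ± 135. The ranges of the libraries overlapped among non-cycling RGC-like, excitatory-neuron-like, interneuron-like and striatal-neuron-like cells. Within each library, excitatory-neuron-like cells had the lowest sum of these 4 classes, with log2 differences from non-cycling RGC-like cells of 0.09 and 0.19 (RGC-like higher) and from interneuron-like cells of -0.29 and -0.17. The order of the other 3 differed between the libraries. Members gave 0.617% ± 0.0806 of all UMIs in cycling RGC-like cells.

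To find which members differed with cycling in the cortical stem cells, cycling and non-cycling RGC-like cells were compared. Of 39 members that passed the filter on low counts, 33 were higher and 1 was lower in cycling cells (edgeR's quasi-likelihood test, adjusted p under 0.05 over 10561 genes), whereas 8.17% of all genes tested were higher and 4.9% lower. The median log2 difference was 2.92 over these members and -0.00 over all genes. Cycling was called from S-phase and G2/M genes alone and not from the members. All 5 H1 genes tested, 9 of 11 H2A, 9 of 12 H2B, 6 of 6 H3 and 4 of 5 H4 genes were higher. Without WT replicate 1 the count of calls fell to 17 and without WT replicate 6 it was 19, with the spread taken from other classes. P-values here measure the spread between 2 samples only, each of which is a sum over a class in one library.

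Among the linker histones, Hist1h1b rose from 40.8 and 37.7 to 1185 and 1494 CPM in cycling RGC-like cells, a log2 difference of 5.13 ± 0.18 (SE, adjusted p = 1.14e-06). Hist1h1e rose from 248 and 247 to 1041 and 1091 CPM (2.14 ± 0.12, adjusted p = 1e-05). Hist1h1c rose from 43.9 and 35.8 to 159 and 159 CPM (2.04 ± 0.17, adjusted p = 7.26e-05). For each of these linker histone genes, both cycling library sums stood above both non-cycling sums, which does not describe single cells. Of the H2A genes, Hist1h2af had 44.0 and 44.8 CPM in cycling and 1.02 and 0 CPM in non-cycling cells. It was counted as 139 against 1 UMI, a ratio of 90.5 with a counting interval of 15.99 to 3602 (fitted log2 difference 6.28, adjusted p = 8.43e-05). Hist1h2ap had 516 and 127 CPM against 13.3 and 6.60 (5.06 ± 0.78, adjusted p = 0.00316). This difference was far above the spread, but cycling cells of the libraries themselves differed by a ratio of 4.07 in Hist1h2ap, and its call was lost without WT replicate 1 or WT replicate 6 (adjusted p = 0.287 and 0.0912). Hist1h2ae rose from 36.8 and 19.8 to 558 and 291 CPM (3.95 ± 0.38, adjusted p = 0.000179).

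Of the H2B genes, Hist1h2bh had 17.2 and 17.9 CPM in cycling RGC-like cells and 0 and 0.943 in the others. Its 55 against 1 UMIs gave a ratio of 35.8 (6.17 to 1440; adjusted p = 0.00197). Hist1h2bc was the exception of the type, with 62.5 and 77.4 CPM in cycling and 127 and 129 CPM in non-cycling cells. It fell by 0.83 on the log2 scale (SE 0.16, adjusted p = 0.00964), the only member to do so in RGC-like cells. Hist1h3c rose from 11.2 and 2.83 to 197 and 176 CPM (4.78 ± 0.32, adjusted p = 2.06e-05). Hist1h4d rose from 99.0 and 77.4 to 708 and 444 CPM (2.75 ± 0.25, adjusted p = 0.000116). The other 5 members tested did not pass. Hist3h2ba had 142 and 148 CPM in cycling against 125 and 148 in non-cycling cells (0.13, adjusted p = 0.606), and Hist3h2a 31.9 and 37.8 against 43.9 and 52.8 (-0.44, adjusted p = 0.205). Hist2h2be, Hist1h2ac and Hist1h4a had log2 differences of 0.81, 1.99 and 1.14 (adjusted p = 0.475, 0.0559 and 0.241), and Hist1h2ac passed with the library as a block (1.98, adjusted p = 0.00346).

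In IPC-like cells, 41 of 44 members tested were higher and 2 lower in cycling cells, while 15.3% of 11560 genes were higher and 10.8% lower. The median log2 difference was 4.08 over the members, or 4.04 with a member at 0 set to its bound, and -0.02 over all genes. Hist1h1b went from 21.8 and 18.7 to 1368 and 1116 CPM (5.98 ± 0.17, adjusted p = 2.12e-09). Hist1h1e went from 188 and 155 to 1127 and 856 CPM (2.58 ± 0.16, adjusted p = 6.93e-07). Hist1h2ah was counted as 18 UMIs in cycling and 0 in non-cycling cells, at least 16.1-fold higher against a floor of 3 UMIs over the group (fitted adjusted p = 0.00123). Hist1h2ap had 621 and 109 CPM against 9.09 and 1.05 (6.24 ± 0.83, adjusted p = 0.000276). The libraries differed from each other in cycling cells for this gene but lay far above both non-cycling sums. Hist1h2af had 59.9 and 41.0 against 0.551 and 1.05 (5.94 ± 0.39, adjusted p = 1.04e-06). Hist1h3b was counted as 74 against 3 UMIs, a ratio of 66.2 (21.8 to 328). By type, 5 of 5 H1, 12 of 13 H2A, 11 of 13 H2B, 8 of 8 H3 and 5 of 5 H4 genes rose.

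The 2 members that fell in cycling IPC-like cells were the pair on chromosome 11. Hist3h2ba had 204 and 186 CPM in cycling and 384 and 426 CPM in non-cycling IPC-like cells, and fell by 1.01 on the log2 scale (SE 0.11, adjusted p = 8.35e-05). Hist3h2a had 36.5 and 42.5 CPM against 85.4 and 105 and fell by 1.22 (SE 0.16, adjusted p = 0.000246). Both libraries gave lower sums in cycling cells, which adds no support to the calls that picked the pair. Hist1h2bc was higher in cycling IPC-like cells, with 35.8 and 53.9 against 27.5 and 23.2 CPM (0.86 ± 0.21, adjusted p = 0.0131). In RGC-like cells it was lower, and the difference between both effects was -1.72 (SE 0.28, adjusted p = 0.0125 in the test added after seeing the data). Hist2h2be did not pass (0.21, adjusted p = 0.753). Leaving out WT replicate 1 left 29 calls and leaving out WT replicate 6 left 39.

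In eminence-progenitor-like cells, 41 of 46 members tested were higher and 2 lower in cycling cells, against 12.4% and 12.3% of 11149 genes. The median log2 difference was 3.56 over the members, 3.53 with the member at 0 set to its bound, and -0.01 over all genes. Hist1h1b rose from 39.2 and 33.2 to 1356 and 1525 CPM (5.32 ± 0.17, adjusted p = 1.52e-07). Hist1h1e rose from 155 and 186 to 1318 and 1419 CPM (3.04 ± 0.15, adjusted p = 5.24e-07). Hist1h2ag was counted as 88 UMIs in cycling and 0 in non-cycling cells, at least 10.2-fold higher against the same floor, and was not called without WT replicate 1 (adjusted p = 0.142). Hist1h2af had 411 against 1 UMI, a ratio of 143 (25.5 to 5664), and Hist1h2an 179 against 1 UMI, a ratio of 62.3 (11.0 to 2475). For both, the cycling libraries had at least 24.7 CPM and the non-cycling ones at most 1.44. Hist1h3b had 243 against 1 UMI, a ratio of 84.6 (15.04 to 3354), and was not called without WT replicate 1 (adjusted p = 0.0695). Hist1h3c rose from 4.998 and 4.33 to 402 and 283 CPM (6.18 ± 0.31, adjusted p = 6.15e-07). Hist1h4d rose from 99.97 and 47.7 to 1179 and 628 CPM (3.58 ± 0.36, adjusted p = 6.01e-05).

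The same chromosome 11 pair fell in the eminence class. Hist3h2ba had 207 and 172 CPM in cycling and 410 and 474 CPM in non-cycling cells (-1.19 ± 0.15, adjusted p = 0.000318). Hist3h2a had 51.7 and 40.7 against 79.98 and 107 (-0.96 ± 0.20, adjusted p = 0.00705). Hist1h2bc, Hist2h4 and Hist2h2be did not pass (-0.35, 1.59 and 1.22; adjusted p = 0.271, 0.0854 and 0.125). The count of calls was 25 without WT replicate 1 and 42 without WT replicate 6, and 28 when each gate asked for 1 more marker. Over the 3 progenitor classes, 48 members were tested in at least 1, 19 in none and 39 in all 3, of which 33 were higher in all 3. Hist3h2ba and Hist3h2a were higher in none of the 3 classes, Hist1h2bc in 1 of 3 and Hist2h2be passed in none, so the set is called here by its symbols rather than as a single S-phase programme. In a test of the difference between classes, added after seeing the data, the effect of cycling on Hist3h2ba was 1.11 higher in RGC-like than in IPC-like cells (SE 0.20, adjusted p = 0.0238) and 1.31 higher than in the eminence class (SE 0.20, adjusted p = 0.00687). Neuronal transcripts moved with the pair. The excitatory neuron marker list summed to 1656 and 1793 CPM in cycling and 2461 and 2571 in non-cycling IPC-like cells (9 or 10 of 10 genes detected). The interneuron list summed to 2925 and 2536 CPM in cycling and 8891 and 8936 in non-cycling eminence-progenitor-like cells (12 of 12 detected), and its part in the result was not tested.

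**Figure D2:**
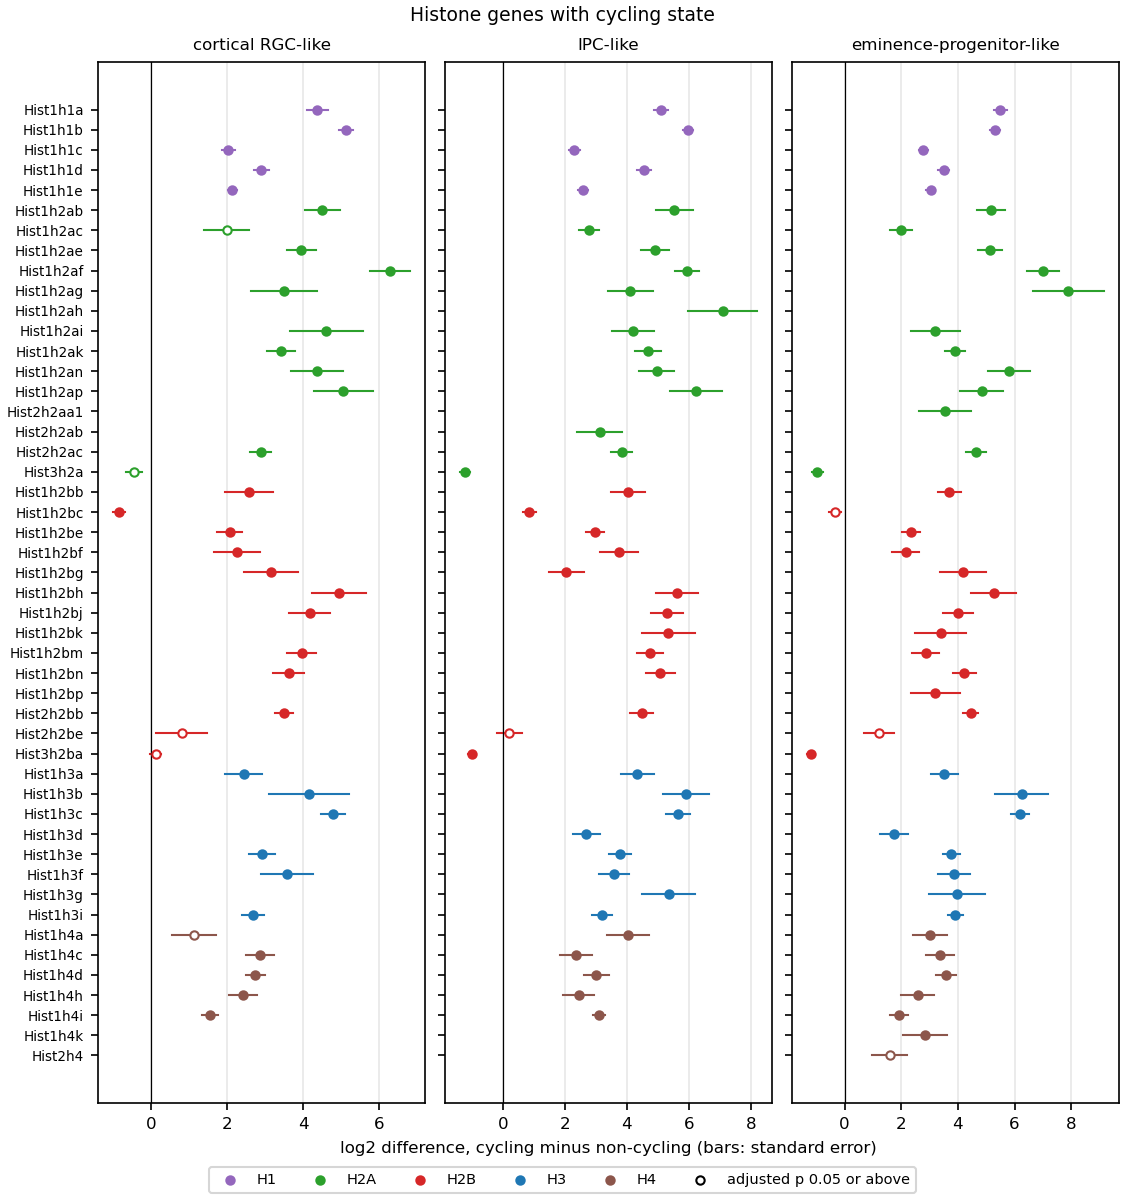
Log2 difference between cycling and non-cycling cells with its SE for the members tested, in RGC-like, IPC-like and eminence-progenitor-like cells, coloured by histone type, with open symbols where the adjusted p was 0.05 or above. Nearly all members lie right of 0, while Hist3h2ba and Hist3h2a lie left of 0 in IPC-like and eminence-progenitor-like cells and Hist1h2bc in RGC-like cells (-0.83).

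Genes that act with histones were followed in lists, some of whose members (Chaf1b, Mcm2, Hjurp and Anp32e) also stood on the lists of the cycling gate. Of the histone variant genes, 6, 8 and 7 of 11 tested were higher in cycling RGC-like, IPC-like and eminence-progenitor-like cells. None was lower, and the medians were 0.58, 0.60 and 0.97. Cenpa, the histone H3 of centromeres, had the largest log2 differences in these lists of variants (4.04, 5.44 and 4.15), followed by the DNA damage-marking H2afx (3.37, 3.55 and 4.13) and by H2afz (1.61, 2.33 and 1.96). H1fx (1.31, 2.01 and 1.47) and H2afv (0.69, 1.49 and 1.31) also passed in all 3. Of the genes for histone mRNA 3′-end formation and turnover, 6, 11 and 10 of 21 were higher and none lower, with medians of 0.46, 0.66 and 0.46. Slbp had 95.004 and 98.6 CPM in cycling and 40.8 and 29.2 in non-cycling RGC-like cells, and its log2 differences were 1.51, 2.10 and 1.86. The cyclin E genes Ccne2 (2.84, 2.88 and 2.64) and Ccne1 (2.75, 3.20 and 2.77), whose kinase acts on histone gene transcription, had the larger differences of that list. Cdk2, their kinase, rose by 2.90 in IPC-like and 1.87 in eminence-progenitor-like cells, Lsm11 of the U7 particle by 2.08 in RGC-like cells, Eri1, an exonuclease of the histone stem-loop, by 1.21 and 1.30 in the RGC-like and IPC-like cells, and Casp8ap2 by 1.11 in the eminence class.

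Of the histone chaperones, which carry histones to DNA, 15, 17 and 16 of 20 were higher and none lower, with medians of 0.85, 1.01 and 1.09. Without the 4 chaperone genes on the lists of the cycling gate, 11, 13 and 12 of 16 were higher, with medians of 0.66, 0.85 and 0.97. Asf1b rose by 5.72, 5.53 and 4.90 on the log2 scale, Chaf1a, the large subunit of chromatin assembly factor 1, by 2.25, 2.998 and 2.40, while Nasp (1.38, RGC-like) and Hat1 (2.13, eminence) were also among the 5 largest of a comparison. The gate genes Chaf1b (3.04, 2.87 and 2.13), Hjurp (2.45, 2.63 and 2.29) and Mcm2 (2.44, IPC-like) completed these 5, and their differences are not independent of how cycling was called. Over the 39, 44 and 46 members tested, the median differences of 2.92, 4.08 and 3.56 were above the medians of these lists. This is a description without a test. The low-count filter kept some members through their UMIs in cycling cells, such as Hist1h2af in RGC-like cells (139 against 1). Counts and medians of members therefore depend on the filter. Without it, 38, 50 and 49 of 63 members were higher in cycling RGC-like, IPC-like and eminence-progenitor-like cells.

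Cycling progenitors were next split by whether the S-phase or the G2/M list stood higher in a cell, each scaled over the cycling progenitors. The summed histone level differed little between the phases. It was 6754 and 6214 CPM in S-scored and 6725 and 5156 in G2/M-scored RGC-like cells (a log2 difference of 0.14), 8522 and 5820 against 7149 and 3191 in IPC-like cells (0.56), and 10394 and 7725 against 9703 and 6841 in eminence-progenitor-like cells (0.14). Library ranges overlapped in each pair, although within each library the S-scored sum was the higher one.

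Of 38 members tested in RGC-like cells, 2 were higher and 2 lower in S-scored cells, while 4.35% of 8961 genes were higher and 3.44% lower. The linker histone Hist1h1a had 138 and 203 CPM in S-scored and 98.5 and 106 in G2/M-scored cells (0.74 ± 0.20, adjusted p = 0.0267). Hist1h1d had 207 and 218 against 155 and 131 (0.58 ± 0.18, adjusted p = 0.0498). Both H1 genes were higher in S-scored cells in each library, but they were named because they were called. The H2B gene Hist1h2bc had 30.4 and 43.0 CPM against 83.7 and 102 (-1.33 ± 0.25, adjusted p = 0.0013). Hist2h2bb had 57.7 and 59.9 against 103 and 110 (-0.85 ± 0.22, adjusted p = 0.0167). DESeq2 called none of the 4 (0 calls), and their calls did not hold when either library was left out. In IPC-like cells, 0 of 38 members passed edgeR's test, beside 2.01% of 8377 genes higher and 2.32% lower. At an unadjusted p under 0.05, 4 members were higher and 2 lower, and DESeq2 called 0. With the library as a replicate block, 6 were called, all higher in S-scored cells, and without WT replicate 1 there were 5 calls.

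In eminence-progenitor-like cells, 2 of 51 members were higher and 1 lower in S-scored cells, beside 3.16% of 10134 genes higher and 4.1% lower. Hist1h1a had 285 and 329 CPM against 177 and 152 (0.85 ± 0.14, adjusted p = 0.0032). Hist1h1b had 1611 and 1813 against 1117 and 1195 (0.52 ± 0.12, adjusted p = 0.0293). Hist3h2a had 32.4 and 29.9 CPM against 69.8 and 53.0 and fell by 1.03 (SE 0.22, adjusted p = 0.0182). With the library as a block, 6 members were higher and 4 lower, and leaving out either library left 1 call. In the fits without a library block, the share of members called was near the background in all 3 classes. The variant list held 6, 5 and 3 genes lower and 0 higher in S-scored cells, and the 3′-end list 5, 4 and 6 higher and 0 lower. The chaperone list, without the genes of the S-phase and G2/M lists, held 4, 3 and 6 of 16 genes higher and 0 lower.

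The split by phase hid a dependence on the position in the cycle, which appeared when cycling progenitors were binned by the log2 ratio of S-phase to G2/M list levels. Cells below -4, richest in G2/M transcripts, had summed histone levels of 3022 and 2096 CPM. The level rose to 6506 and 4871 between -4 and -3, to 11826 and 7904 between -3 and -2, and to 15569 and 9445 between -2 and -1. It was 13747 and 9912 between -1 and 0, and then 3250 and 2741 in cells with at least as much S-phase as G2/M signal. Both libraries thus had a peak in the middle bins and low values at both ends, with 46 to 126 cells in each bin and library. In eminence-progenitor-like cells alone, each bin held 22 to 56 cells a library, the peak reached 16219 and 11131 CPM, and the last bin had 3044 and 2620. RGC-like and IPC-like cells had bins of under 20 cells and are shown in the plot by position only for comparison.

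Single members followed this course to different degrees. Hist1h1b went from 275 and 263 CPM in the lowest bin to 2507 and 2412 between -2 and -1 and to 604 and 684 in the highest. Hist1h1e went from 347 and 393 to 1953 and 1797 and to 501 and 603, and Hist1h2ae from 190 and 94.2 to 1883 and 755 and to 226 and 127. These 3 genes peaked in the bins between -2 and 0 in both libraries. Hist3h2ba had 251 and 192 CPM in the lowest bin, 200 and 183 between -2 and -1 and 141 and 122 in the highest, a course without the peak. Hist1h2bc had 54.3 and 89.3, 37.3 and 61.3, and 19.4 and 25.3 CPM in the same bins. The cells of the highest bin (72 RGC-like, 62 IPC-like and 105 eminence-progenitor-like) were all S-scored. Without them, 11 of 37 members were higher and 0 lower in S-scored RGC-like cells, beside 3.11% of 8224 genes higher and 1.46% lower. In IPC-like cells 0 of 36 passed edgeR's test, beside 0.419% of 7403 genes higher and 0.689% lower, and 10 members were higher and 0 lower at an unadjusted p under 0.05. In eminence-progenitor-like cells 5 of 51 were higher and 0 lower, beside 2.72% of 9516 genes higher and 2.9% lower. Since these cells were left out after their low histone level had been seen, the counts restate the course over the bins and are no independent test of it. Hist2h2bb in RGC-like cells then had a log2 difference of 0.23 in place of -0.85.

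**Figure D3:**
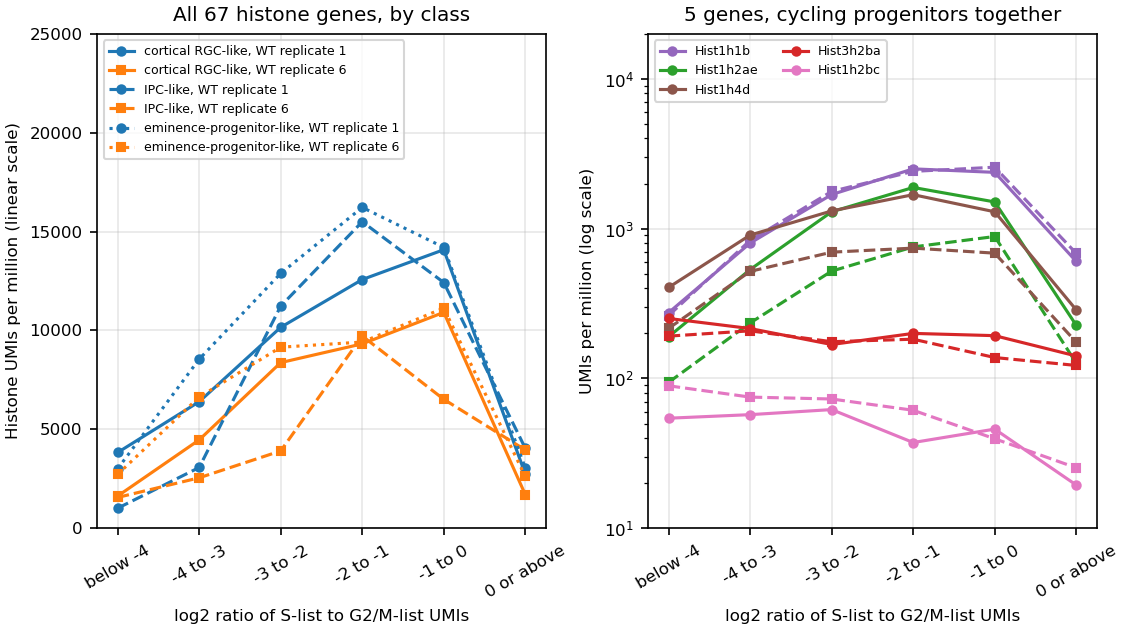
Left, summed histone level in CPM against the bin of the log2 ratio of S-phase to G2/M list levels, in 3 progenitor classes (line styles) and 2 libraries (colours). Right, the level of 5 members in all cycling progenitors on a log axis. The sum peaks between -2 and 0 and is low in both end bins, while Hist3h2ba stays between 122 and 251 CPM.

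Cycling progenitors of the cortex and of the eminence were compared to see whether the dividing classes differ in their histone mRNAs. Between cycling RGC-like and IPC-like cells, 0 members were higher and 1 lower of 47 tested, beside 13% of 10640 genes higher and 12.1% lower. The member was Hist3h2ba, with 142 and 148 CPM in RGC-like and 204 and 186 in IPC-like cells (-0.46 ± 0.14, adjusted p = 0.0242). This call was lost without WT replicate 1 (adjusted p = 0.19) and by DESeq2 (0 calls), and 3 members, 2 higher and 1 lower, were called with the library as a block. The log2 difference of the summed level was -0.22 and 0.32 in the libraries, without a shared direction. The median of the tested members was -0.17.

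Between cycling RGC-like and eminence-progenitor-like cells, 18 of 53 members were lower in RGC-like cells and 1 was higher, whereas 14.7% and 15.7% of 11352 genes were lower and higher. The median difference over the members was -0.71, and the summed level was 0.717-fold that of the eminence class. By type, 4 of 5 H1, 3 of 15 H2A, 6 of 15 H2B, 4 of 9 H3 and 1 of 9 H4 genes were lower. Hist1h2bb had 38.3 and 19.8 CPM in RGC-like and 82.7 and 52.8 in eminence-progenitor-like cells (-1.28 ± 0.30, adjusted p = 0.00938). Hist1h2bn had 33.2 and 27.5 against 79.9 and 58.1 (-1.24 ± 0.21, adjusted p = 0.00165). Hist1h3i had 45.9 and 41.0 against 99.8 and 89.3 (-1.18 ± 0.16, adjusted p = 0.000354). The eminence class was the higher one in both libraries for each of these. They were named because they were called, so the separate sums add no support to the calls. Hist1h2ae had 558 and 291 CPM against 1133 and 586 (-1.08 ± 0.33, adjusted p = 0.0319), so that the highest RGC-like value lay just below the lowest one of the eminence class. Hist1h4a had 8.93 and 10.2 against 28.5 and 14.1 (-1.21 ± 0.40, adjusted p = 0.042).

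The member higher in RGC-like cells was Hist1h2bc, with 62.5 and 77.4 CPM against 38.9 and 49.4 (0.61 ± 0.18, adjusted p = 0.0256). The count moved from 19 to 32 (2 higher, 30 lower) with the library as a block, to 9 by DESeq2, and to 3 and 10 without WT replicate 1 and WT replicate 6. Without WT replicate 1 the calls of Hist1h2bb, Hist1h2bn, Hist1h2ae and Hist1h4a were lost (adjusted p = 0.0768, 0.0612, 0.238 and 0.622), and without WT replicate 6 those of Hist1h2bb and Hist1h2ae (0.0794 and 0.22). The S-phase list moved the same way as the members, with 14 of 38 genes lower in RGC-like than in eminence-progenitor-like cells and 0 higher. It gave the same counts between cycling RGC-like and IPC-like cells, where Hist3h2ba was the only member called. The medians of the list were -0.33 and -0.27 in the same order. Its part in the differences between members was not tested.

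Outside the cycle, Hist3h2ba made up a smaller share of the remaining histone UMIs in RGC-like cells than in neurons, IPC-like and eminence-progenitor-like cells. It alone made up 49.97% ± 5.41 of the summed level in excitatory-neuron-like cells, 49.2% ± 3.84 in striatal-neuron-like, 39.8% ± 3.58 in interneuron-like and 36.5% ± 7.60 in Cajal-Retzius-like cells (SD, n = 2). It made up 41.5% ± 6.88 in non-cycling IPC-like and 37.8% ± 5.51 in non-cycling eminence-progenitor-like cells, but 13.7% ± 2.56 in non-cycling RGC-like cells. The IPC-like and eminence classes also held neuronal marker transcripts, so they are not free of a neuronal part. In cycling progenitors it gave between 2.21% ± 0.199 and 3.37% ± 1.1004. Without it, the other members summed to 868 ± 83.3 CPM in non-cycling RGC-like, 577 ± 121 in non-cycling IPC-like, 459 ± 101.5 in excitatory-neuron-like and 653 ± 150 in interneuron-like cells.

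Of 43 members tested between non-cycling RGC-like and excitatory-neuron-like cells, 11 were higher in RGC-like cells and 2 lower, beside 23.4% of 15162 genes higher and 26.2% lower. In this fit without a library block, the share of members called higher was near the background, while the share called lower was below it. The median was 0.57 over the members and -0.08 over all genes, and with plain library totals in place of TMM the latter moved to 0.13. The RGC marker list summed to 16553 and 16938 CPM in the RGC-like and to 485 and 506 in the neuron-like cells. Of the 5 H1 genes tested, 4 were higher in RGC-like cells. Hist1h1e had 248 and 247 CPM in RGC-like and 70.3 and 64.4 in neuron-like cells (1.67 ± 0.10, adjusted p = 7.56e-07). Hist1h1b had 40.8 and 37.7 against 14.8 and 12.4 (1.32 ± 0.20, adjusted p = 0.000459). Hist1h1c differed less, with 43.9 and 35.8 against 25.3 and 24.2 CPM (0.47 ± 0.16, adjusted p = 0.0362). Outside H1, Hist2h2ac had 37.8 and 26.4 CPM against 6.77 and 3.48 (2.43 ± 0.40, adjusted p = 0.000847). Hist1h2bc had 127 and 129 against 28.4 and 22.7 (2.11 ± 0.14, adjusted p = 2.31e-06). In each of these members both RGC-like sums stood above both neuron-like sums, which adds no support to calls already made.

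Hist1h3a (5.11 and 1.89 against 0.638 and 0.423 CPM, 2.47 ± 0.73, adjusted p = 0.0202) and Hist1h4a (7.15 and 1.89 against 0.981 and 0.611 CPM, 2.25 ± 0.72, adjusted p = 0.0284) rested on fewer than 10 UMIs in RGC-like cells. Hist2h2be had 1.02 and 11.3 against 1.18 and 1.503 CPM (2.02 ± 0.72, adjusted p = 0.0432), and its difference turned to -0.34 without WT replicate 6. Hist1h3a lost its call without WT replicate 6 (adjusted p = 0.0739) and Hist1h4a without either library (0.54 and 0.0588). The 2 members lower in RGC-like cells were again the chromosome 11 pair. Hist3h2ba had 125 and 148 CPM in RGC-like and 455 and 451 in neuron-like cells and fell by 1.94 (SE 0.12, adjusted p = 1.04e-06). Hist3h2a had 43.9 and 52.8 against 121 and 134 and fell by 1.61 (SE 0.13, adjusted p = 6.2e-06). The calls numbered 9 without WT replicate 1 and 7 without WT replicate 6. Trim17, which overlaps Hist3h2a, had 6.87 and 7.05 CPM in excitatory-neuron-like and 7.15 and 0.943 in non-cycling RGC-like cells.

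Across non-cycling classes, Hist3h2ba had its higher values in neurons, IPC-like and eminence-progenitor-like cells and its lower ones in vascular and mesenchymal cells. The eminence class here held 8891 and 8936 CPM of the interneuron list, against 1091 and 1328 of the eminence progenitor list. IPC-like cells held 2461 and 2571 CPM of the excitatory neuron list, against 1843 and 1738 of the IPC list. The part of neuronal transcripts or cells in these Hist3h2ba levels was not tested. Its level was 501 and 484 CPM in striatal-neuron-like, 455 and 451 in excitatory-neuron-like, 450 and 401 in interneuron-like, 410 and 474 in non-cycling eminence-progenitor-like and 384 and 426 in non-cycling IPC-like cells. Cajal-Retzius-like cells had 241 and 245 CPM and OPC-like cells 131 and 287. Microglia-like cells had 120 and 170, mural-like 121 and 109, endothelial-like 102 and 117 and fibroblast-like cells 90.4 and 117 CPM. The first 5 classes overlapped in part, as did non-cycling RGC-like (125 and 148) and the non-neural classes, while all neuronal classes, Cajal-Retzius-like cells included, stood above the microglia-like, mural-like, endothelial-like and fibroblast-like ones in both libraries.

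**Figure D4:**
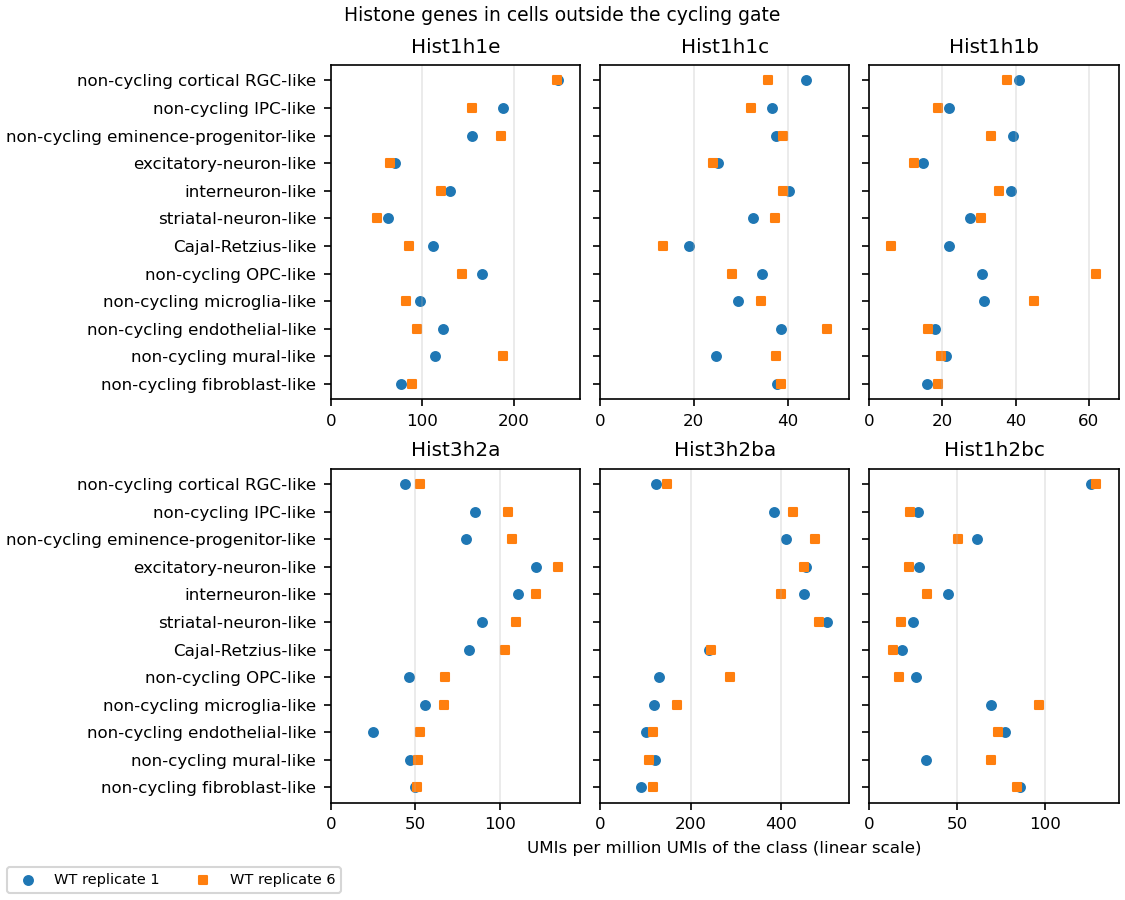
Levels in CPM of Hist1h1e, Hist1h1c, Hist1h1b, Hist3h2a, Hist3h2ba and Hist1h2bc in 12 non-cycling classes, 1 point per library. Hist3h2ba and Hist3h2a are high in neurons (455 and 451, 121 and 134 CPM in excitatory-neuron-like cells), and Hist1h1e and Hist1h2bc are high in non-cycling RGC-like cells (248 and 247, 127 and 129 CPM).

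Excitatory-neuron-like cells were compared with interneuron-like cells to set cortex-born against eminence-born neurons. Of 45 members, 10 were lower and 1 higher in excitatory-neuron-like cells, beside 22% of 15229 genes lower and 22.5% higher. In this fit without a library block, the share of members called lower was near the background, while the share called higher was below it. The median was -0.57 over the members and 0.01 over all genes. Among the H1 genes 4 of 5 were lower, such as Hist1h1b with 14.8 and 12.4 against 38.8 and 35.5 CPM (-1.37 ± 0.13, adjusted p = 0.000104) and Hist1h1e with 70.3 and 64.4 against 131 and 121 CPM (-0.82 ± 0.08, adjusted p = 0.000148). Hist1h2an had 0.540 and 0.235 against 2.74 and 1.41 CPM (-2.33 ± 0.57, adjusted p = 0.012). Hist1h2ac had 5.10 and 2.35 against 11.0 and 8.47 (-1.30 ± 0.39, adjusted p = 0.0266). Both H2A genes were low in either class. Hist1h2bf had 1.08 and 0.517 against 3.88 and 2.35 CPM (-1.88 ± 0.48, adjusted p = 0.0146). Hist1h3d had 1.86 and 1.27 against 4.33 and 7.53 (-1.83 ± 0.36, adjusted p = 0.00431). Each of these was named because it was called, so its lower values in both libraries add no support to the call. Hist1h2an, Hist1h2ac, Hist1h2bf and Hist1h3d stood at 11.0 CPM or less.

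Hist3h2a was the member higher in excitatory-neuron-like cells, with 121 and 134 against 110 and 121 CPM (0.22 ± 0.08, adjusted p = 0.0446), a call lost with plain library totals (0.14, adjusted p = 0.208). Hist3h2ba had 455 and 451 against 450 and 401 CPM (0.17, adjusted p = 0.126; 0.18 and adjusted p = 0.00071 with the library as a block). With the library as a block 24 members were called, 2 higher and 22 lower. The share of all genes called in that fit is not given here, so the reading against the background holds for the fit without the block. Without WT replicate 1 there were 4 calls and without WT replicate 6 there were 3, with Hist1h2bf not called in either (adjusted p = 0.0863 and 0.0714) and Hist1h2an, Hist1h2ac and Hist1h3d not called without WT replicate 6 (0.0677, 0.178 and 0.16). When neurons above the cycling limit were kept, an alternative chosen after seeing the data, 33 members were called. Cells above that limit made up 6.76% of interneuron-like and 0.443% of excitatory-neuron-like cells. Of the G2/M list, 20 of 46 genes were lower in excitatory-neuron-like cells below the limit and 6 were higher. The part of remaining cycling transcripts in the difference was not tested.

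Shares of cells with a UMI were taken after thinning each cell to 2000 UMIs, which left out 50 excitatory-neuron-like and 327 interneuron-like cells. At this depth, 80.1% ± 2.51 of excitatory-neuron-like, 83.2% ± 4.26 of interneuron-like and 85.7% ± 3.32 of non-cycling RGC-like cells had at least 1 UMI of any member (SD, n = 2), and 91.8% ± 0.852 of cycling RGC-like cells. Hist3h2ba was found in 1195 of 2170 excitatory-neuron-like cells of WT replicate 1 (55.1%, exact interval 52.9 to 57.2%) and in 1400 of 2501 of WT replicate 6 (56.0%, 54.0 to 57.9%). The unthinned shares were 87.6% and 87.9%. It was found in 50.3% ± 0.253 of interneuron-like and in 23.4% ± 4.01 of non-cycling RGC-like cells. In endothelial-like cells, the class with the lowest share and a higher median depth (10590 and 11601 UMIs, against 8586 and 7740 in excitatory-neuron-like cells), it was found in 17.1% ± 0.561. No class is known to lack the gene, so that share gives an upper level of free RNA and not a measured background.

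For Hist1h1e the thinned shares were 58.0% ± 4.50 in cycling RGC-like, 41.3% ± 4.49 in non-cycling RGC-like, 22.8% ± 0.336 in interneuron-like, 13.3% ± 1.12 in excitatory-neuron-like and 15.5% ± 1.68 in fibroblast-like cells. Excitatory-neuron-like cells were thus at or below the fibroblast-like share of this gene. Hist1h1b was found in 46.0% ± 1.27 of cycling and 9.49% ± 1.08 of non-cycling RGC-like cells and in 3.51% ± 0.504 of excitatory-neuron-like cells, beside 3.34% ± 0.791 of fibroblast-like cells. Hist1h2ae was found in 4.17% ± 2.84 of excitatory-neuron-like cells beside 3.17% ± 2.24 of endothelial-like and 2.31% ± 1.30 of microglia-like cells, so that the neuronal share did not stand apart from these classes. It was found in 0 of 149 fibroblast-like cells at this depth. With a floor of 3 cells in place of an exact interval, this allows a share of up to 2.01%. Unthinned, 8.67% ± 2.44 of fibroblast-like cells had a UMI of Hist1h2ae. Hist1h2bc was found in 20.9% ± 1.81 of non-cycling RGC-like and 4.83% ± 0.272 of excitatory-neuron-like cells. Erythroid marker genes, chiefly globins, summed to 1563 and 2029 CPM in excitatory-neuron-like, 3155 and 3961 in interneuron-like and 1540 and 1873 in non-cycling RGC-like cells. Of that list, 6 to 8 of 8 genes were detected in each of these classes and libraries, and the part of free RNA in the low histone values of neurons was not tested.

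The libraries differed more in the core histones than in the linker histones. In cycling progenitors of the 3 classes together, the ratio of WT replicate 1 to WT replicate 6 had a median of 1.004 over 5 H1 genes (0.926 to 1.13). It was 2.04 over 14 H2A genes (1.06 to 4.53), 1.49 over 15 H2B genes (0.761 to 3.08), 1.70 over 8 H3 genes (1.18 to 2.57) and 1.88 over 9 H4 genes (0.903 to 3.61). The summed ratios were 0.982, 2.26, 1.36, 1.64 and 1.81 in the same order. Hist1h1e had 1196 and 1191 CPM and Hist1h1b 1313 and 1418 CPM, close to equal in both libraries when the classes were pooled. In RGC-like, IPC-like and eminence-progenitor-like cells the ratios were 0.954, 1.32 and 0.929 for Hist1h1e and 0.793, 1.23 and 0.889 for Hist1h1b. In IPC-like cells alone, the 5 H1 genes had ratios of 1.23 to 1.48. Hist1h2ap had 636 and 140 CPM, a ratio of 4.53 that was 4.07, 5.72 and 4.33 in RGC-like, IPC-like and eminence-progenitor-like cells. Hist1h2ae had 886 and 430 CPM (2.06), Hist1h2ab 332 and 154 (2.15), Hist1h4d 952 and 506 (1.88) and Hist1h3c 315 and 217 (1.45). Hist3h2ba had 189 and 169 (1.12), and Hist1h2bc 44.5 and 58.4 (0.761). With 1 library on each side these ratios compare libraries and have no replicate check.

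**Figure D5:**
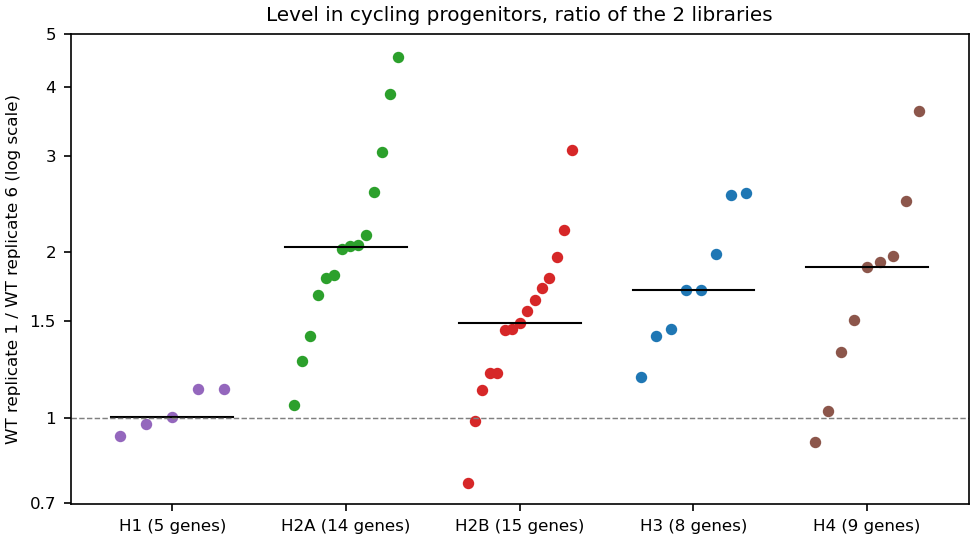
Ratio of the level in WT replicate 1 to that in WT replicate 6 in cycling progenitors (log axis) for single members by histone type, with bars at the medians. H1 genes lie around 1.004, while the medians of H2A, H2B, H3 and H4 genes are 2.04, 1.49, 1.70 and 1.88, up to 4.53 for Hist1h2ap.

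The ratio was also set against the 3′ ends of the transcript models. The end was taken from the longest model with a stem-loop match. The 15 members whose model ended within 100 bases of the stem-loop had a median ratio of 2.06 (1.45 to 4.53). The 9 that ended later but within 500 bases had 1.71 (0.761 to 2.54), and the 11 that ended beyond that 1.32 (1.004 to 1.88). Among the last, the 8 core histone genes had a median of 1.43 and the 3 H1 genes 1.13. Among members with a stem-loop match, those with short ends had the larger ratios, as a description over genes that share the same 2 libraries. Members without a match were in none of these groups. Their ratios ran from 0.926 in Hist1h1b (model of 743 bases) to 3.89 in Hist1h2ai (393 bases). Summed over all kept cells, the members had 134325 and 98850 UMIs, or 2060 and 1584 CPM.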

How the data were processed

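Cells dissociated from the dorsal telencephalon of WT embryos at E16.5 were profiled in 2 libraries with the 10x 3′ v3.1 chemistry. The values deposited by the authors are UMI counts without normalization, one value for each gene in each cell. The submitters' processing notes name Cell Ranger 7.0.0 and mm10. The counting annotation and whether intronic reads were counted are not given in the sources used here. The study's methods describe E14.5 cells and were not taken to cover these libraries.

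Cells with 1500 to 60000 UMIs and under 10% mt- UMIs were kept (depths are in the report). Classes were gated cell by cell from UMIs of marker genes, and cells meeting no gate were left out. Cells were called cycling at 60 or more S-phase and G2/M list UMIs per 10000, and S-scored or G2/M-scored by the higher z-score of the log2 list levels. UMIs were summed per library and class, since cells are not replicates, and compared with edgeR 4.0.16 in R 4.3.3 (quasi-likelihood test, two-sided, TMM, filterByExpr, Benjamini-Hochberg adjustment over all genes tested). Only the compared classes entered a fit. Each class has a sum in both libraries, so same-library sums pair by construction, and their deviations from class means correlated with r of 0.219 to 0.493 across genes. Log2 differences within a library used a prior count of 0.5. Shares were taken at 2000 UMIs per cell with exact Clopper-Pearson 95% intervals, which, like the floor of 3 UMIs, cover counting error only. Scored doublets (920 and 857 cells) were left out only as an alternative. Other alternatives were DESeq2 1.42.0, plain totals, no filter, a library block, a fit of all classes, stricter cell and class limits, and leaving out each library. In simulated counts, 58 of 100 genes changed 2-fold and 97 of 100 changed 4-fold were recovered for cycling against non-cycling RGC-like cells over 10487 genes. Python 3.11.15 was used for the rest.

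The members and gene lists were chosen with earlier results of these data known. Described with their values were the 12 members with most UMIs, the 5 with the largest absolute log2 difference among those called in each comparison, and the 5 largest called of each list in the cycling comparisons. Transcript models for 3′ ends came from GENCODE vM39 and promoters from RefSeq, and coordinates are those of RefSeq's GRCm38.p6.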

Additional observations from a re-analysis of the deposited data

Results flagged for a closer look

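The effect of cycling on single members was compared between progenitor classes with an interaction term in 1 fit over 11960 genes, added after seeing the data. Each value is the effect in the first-named class minus that in the second. Hist3h2ba differed between RGC-like and IPC-like cells by 1.11 on the log2 scale (SE 0.20, adjusted p = 0.0238, edgeR) and between RGC-like and eminence-progenitor-like cells by 1.31 (SE 0.20, adjusted p = 0.00687). Hist1h2bc differed between RGC-like and IPC-like cells by -1.72 (SE 0.28, adjusted p = 0.0125) and between IPC-like and eminence-progenitor-like cells by 1.23 (SE 0.30, adjusted p = 0.0416). Hist1h1d differed between RGC-like and IPC-like cells by -1.69 (SE 0.37, adjusted p = 0.0465). Its level in non-cycling cells was 19.4 and 27.4 CPM in RGC-like and 7.71 and 6.85 in IPC-like cells, while cycling cells had 175 and 167, and 199 and 134 CPM.

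Histone UMIs were also present in barcodes that no comparison used. Barcodes under 1500 UMIs (4018 and 3802) had summed levels of 2219 and 1691 CPM in WT replicate 1 and WT replicate 6, above the 2060 and 1584 CPM of the kept cells. Kept cells of no class had 1627 CPM over both libraries, and 632 of these 5420 cells were cycling.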

How the results depend on the processing

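Counts of members called were within 1.5 times of the reported ones under most alternatives. In the fits without 1 library, chosen after seeing the data, the lone sums were assumed to vary like the other classes. They gave 17 to 19 calls for cycling RGC-like, 29 to 39 for IPC-like and 25 to 42 for eminence-progenitor-like cells, 0 to 0, 0 to 5 and 1 to 1 for S-scored against G2/M-scored cells in that order, 0 to 2 for cycling RGC-like against IPC-like, 3 to 10 against eminence-progenitor-like cells, 7 to 9 for non-cycling RGC-like against excitatory-neuron-like cells and 3 to 4 for excitatory-neuron-like against interneuron-like cells. For S-scored RGC-like cells, DESeq2 gave 0 calls, no low-count filter 2, a fit of all classes 1, and leaving out S-scored cells with more S-list than G2/M-list UMIs 11 (Hist2h2bb then 0.23). For IPC-like cells there were 6 with the replicate block, 1 in the fit of all classes, 2 with 3000 to 30000 UMIs, 3 without doublets and 2 with the stricter cycling limit. For the eminence class there were 5 without the filter, 10 with the replicate block, 5 with the stricter cycling limit and 5 with the phase restriction. Cycling RGC-like against IPC-like cells gave 2 calls with plain totals, 3 with the replicate block, 2 with 3000 to 30000 UMIs and the stricter cycling limit, and 0 with DESeq2, no filter, all classes, doublets left out or 1 more marker. Against eminence-progenitor-like cells there were 9 with DESeq2, 11 without the filter or with 1 more marker, 12 with all classes and 32 with the replicate block. Excitatory-neuron-like against interneuron-like cells gave 7 with DESeq2, 24 with the replicate block and 33 with cycling neurons kept. With 1 more marker, 28 members were called in the eminence class by cycling. The replicate block gave 35 in place of 34 calls for cycling RGC-like, 6 in place of 4 for S-scored RGC-like and 14 in place of 13 for non-cycling RGC-like against excitatory-neuron-like cells, and 43 as before for cycling IPC-like and eminence-progenitor-like cells. The causes of these changes were not tested.

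The log2 difference of the summed level between cycling RGC-like and IPC-like cells was 0.05, 0.32 without replicate 1 and -0.22 without replicate 6. Between non-cycling RGC-like and excitatory-neuron-like cells, Hist2h2be had 2.02, 2.75 without replicate 1 and, reversed, -0.34 without replicate 6. Cycling RGC-like cells had 7283 CPM with 1 more marker and 7414 with the stricter cycling limit, and non-cycling eminence-progenitor-like cells 955 with 1 more marker and 1267 as a mean over cells. Without thinning, cells with any member UMI were 100% of cycling and non-cycling IPC-like and non-cycling eminence-progenitor-like, 98.6% of cycling and 97.1% of non-cycling RGC-like, 99.8% of cycling eminence-progenitor-like, 97.5% of excitatory-neuron-like, 91.7% of interneuron-like, 98.2% of endothelial-like, 98.7% of fibroblast-like and 94.5% of microglia-like cells. Of the values of named members under alternatives, 356 kept direction and side of the threshold, 69 lost their call and 2 reversed. With 2 libraries and under 300 cycling RGC-like or IPC-like cells, members with few UMIs could not be resolved.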
